A study of Homo sapiens with 6 samples.

Results

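The 9 genes described here are the zinc finger transcription factor genes EGR1, EGR2 and EGR3, the orphan nuclear receptor genes NR4A1 and NR4A2, the transcription regulator genes IER2 and IER5, SRF itself, and ZFP36, whose product tristetraprolin binds AU-rich elements and speeds the decay of short-lived mRNAs. They were taken by gene symbol, each matched 1 of the 60675 rows of the deposited table, and all 9 were among the 16503 genes that passed the filter on low counts. Immediate early genes are switched on within minutes of a growth factor or stress signal, before any protein has to be made, and their products then set the next wave of transcription or shut the response off. In epithelial cells the main routes to them run through ERK and the ternary complex factors bound with SRF, and through actin dynamics and the MRTF coactivators of SRF.

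RNA was sequenced from HCT116, an established line of human colorectal carcinoma cells, with 2 libraries in each of 3 groups. The siPIR cells carry the genotype label PIRIN Knockdown and are named for small interfering RNA against PIR, the gene of the nuclear protein Pirin. The SP2509 cells carry the label Wildtype and received SP2509, a compound used to inhibit LSD1 (a histone demethylase), and the untreated cells carry the label Wildtype and the treatment label untreated. A treatment note shared by all samples gives 48 h with SP2509 (3 uM) or DMSO. SP2509 is named in the siPIR treatment label too, and whether those cells received the compound is not known. No library is labelled as a non-targeting siRNA, so effects of transfection and of PIR loss cannot be told apart, and whether untreated cells received DMSO is not stated sample by sample. The labels do not describe the duplicates as separate cultures, and p-values therefore measure only the spread between these libraries, which may be technical.

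Libraries held 22622441 to 28816590 counts. PIR had 37 and 39 counts in siPIR libraries, 377 and 305 in SP2509 libraries and 519 and 462 in untreated libraries. After scaling between libraries, PIR was at log2 -2.87 in siPIR cells against untreated cells (edgeR adjusted p = 3.39e-09). In SP2509 cells against untreated cells it was at -0.12 (edgeR adjusted p = 0.406). The summed level of 5 epithelial markers was 1050 and 1120 CPM (counts scaled to a common library total) in siPIR libraries, 4500 and 4460 in SP2509 libraries and 4550 and 4510 in untreated libraries. Against untreated cells, the keratin genes KRT8, KRT18 and KRT19 were lower in siPIR cells, at -2.87, -2.55 and -3.61 on the log2 scale, while EPCAM (1.75) and CDH1 (0.61) were higher. Leukocyte markers summed to at most 1.15 CPM in any library, with PTPRC and CD3E at 0 counts, and endothelial markers to at most 1.98 CPM. Fibroblast markers summed to 1.04 and 1.41 CPM in siPIR libraries, 21.3 and 19.6 CPM in SP2509 libraries and 28 and 32 CPM in untreated libraries, with COL1A2 at 0 counts. Mitochondrial rRNA took 1.14% and 1.36% of counts in siPIR libraries, 6.33% and 6.93% in SP2509 libraries and 1.63% and 1.6% in untreated libraries. The part of the epithelial and fibroblast markers and of mitochondrial rRNA in the results below was not tested. Both siPIR libraries stood apart in base composition: the mean GC content of transcripts weighted by counts was 42.3% and 42.8% there, 48.3% and 48.5% in SP2509 libraries and 48.7% and 48.5% in untreated libraries. Replicates correlated at 0.991 (siPIR) to 0.996 (untreated) across genes.

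The promoters are shown first because the CArG box, the element bound by SRF, is a sequence feature known from immediate early promoters. The RefSeq promoter table (GRCh38.p14) held 7 of the 9 genes (EGR1, EGR2, IER2, IER5, NR4A1, SRF and ZFP36). In the 250 bases before an annotated start, searched on both strands, a CArG box was found in 406 of 34788 distinct promoter windows, or 1.17%. EGR1 had 2 boxes, at 105 to 96 and 83 to 74 bases before the start. SRF had 2 in 1 of its 2 windows, the nearer ending at the base before the start, and EGR2 had 1 in 1 of its 3 windows. No CArG box was matched in the windows of IER2, IER5, NR4A1 and ZFP36, which says only that these letters were not in those bases. A match is a description of the sequence and not a measured binding site. The sequences run 5′ to 3′ on the gene's strand and end at the base before the start, with the CArG boxes in capitals.
EGR1 (chr5:138465229-138465478, plus strand): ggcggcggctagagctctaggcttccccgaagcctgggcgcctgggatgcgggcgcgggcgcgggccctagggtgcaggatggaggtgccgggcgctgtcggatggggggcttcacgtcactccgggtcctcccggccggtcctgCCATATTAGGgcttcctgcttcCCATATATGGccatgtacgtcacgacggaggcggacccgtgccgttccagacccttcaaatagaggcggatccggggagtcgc
EGR2 (chr10:62816367-62816616, minus strand): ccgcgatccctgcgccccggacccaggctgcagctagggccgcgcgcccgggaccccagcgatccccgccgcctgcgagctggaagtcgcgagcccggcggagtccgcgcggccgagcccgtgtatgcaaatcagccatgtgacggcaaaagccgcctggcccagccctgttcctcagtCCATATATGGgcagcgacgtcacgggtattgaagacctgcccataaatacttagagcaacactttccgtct
SRF (chr6:43171019-43171268, plus strand): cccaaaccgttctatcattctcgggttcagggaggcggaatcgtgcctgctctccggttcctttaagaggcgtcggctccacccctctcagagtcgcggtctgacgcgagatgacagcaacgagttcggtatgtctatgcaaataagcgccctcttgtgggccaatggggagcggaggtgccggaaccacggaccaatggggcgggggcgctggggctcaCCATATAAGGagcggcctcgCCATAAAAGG
EGR1 and EGR2 shared the same 10 letters in 1 box each, and both of the SRF boxes differed from it.

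**Figure D1:**
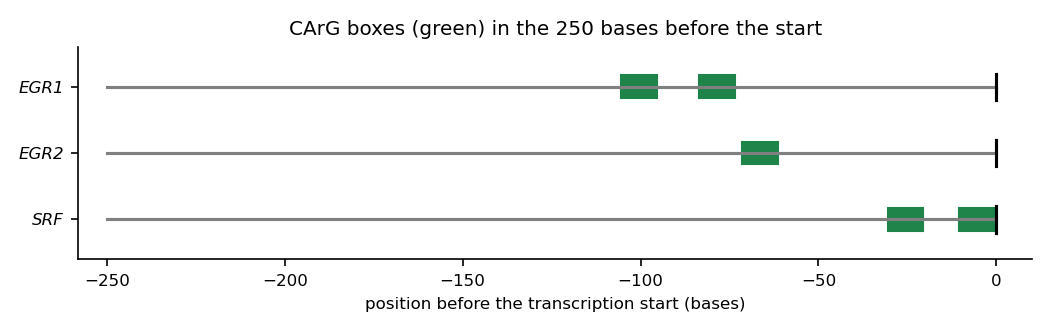
Position of CArG boxes (green blocks, to scale) in the 250 bases before the annotated start (black bar) of EGR1, EGR2 and SRF; the horizontal axis counts bases before the start. EGR1 and SRF carry 2 boxes each and EGR2 carries 1.

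Other features came from the annotation, and not all were shared by the 9 genes. Of the 9 genes, 2 (IER2 and IER5) have a single exon in their longest transcript and 4 (EGR1, EGR2, EGR3 and ZFP36) have 2 exons, whereas 20.8% of all tested genes have up to 2 exons. The pentamer ATTTA, the core of AU-rich decay elements (given as DNA), occurred in the 3′ UTR of 8 of the 9, beside 72.3% of 13191 annotated 3′ UTRs of tested genes. Its density was 7.01 per kilobase in ZFP36, 5.39 in NR4A1, 3.32 in IER5 and 3.05 in NR4A2, against a median of 1.56. EGR2 was near that median at 1.65, and SRF (1.29), EGR3 (1.07), EGR1 (0.81) and IER2 (0) lay below it. The longer element TTATTTATT, present in 9.11% of 3′ UTRs, occurred 3 times in IER5 and once each in SRF and ZFP36. Transcript GC content ran between 47.9% in NR4A2 and 61.7% in IER2, with 49.8% in IER5, 50.9% in EGR2, 51.9% in EGR3, 55.4% in EGR1, 57.3% in ZFP36, 59.8% in NR4A1 and 60.9% in SRF, and the median over tested genes was 48.5%. EGR3, IER2 and NR4A1 each overlap a gene on the opposite strand, and whether counting used strand is not stated in the sources used here, so their counts may include reads of that partner.

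The comparison of SP2509 with untreated cells asks what the compound changed. All 9 genes were higher in SP2509 cells by edgeR's quasi-likelihood test (Benjamini-Hochberg adjusted p between 5.56e-10 and 9.15e-05), with no overlap between the libraries of the groups. The background is large, as 33.5% of all tested genes were called higher and 68.6% in either direction, and the groups did not overlap for 86.9%. In a test against a 2-fold change, which 8.03% of all genes passed upward, 9.9% downward and 17.9% in either direction, 6 of the 9 passed, all upward. Over the 9 genes the median log2 fold change was 1.88, while over all tested genes it was -0.04 with a 90th percentile of 1.18. In bulk RNA a higher level in every cell and a larger share of expressing cells cannot be told apart.

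Among the transcription factors, NR4A1 (ENSG00000123358, GRCh38 chr12:52022832-52059507, plus strand), a ligand-independent nuclear receptor linked to apoptosis and metabolism, had the largest change of the 9. Its level, as CPM adjusted with TMM normalisation factors (trimmed mean of M values; used for all levels from here on), was 112 and 101 in SP2509 libraries and 10.5 and 11 in untreated libraries. The SP2509 libraries thus stood far above both untreated ones. The change was 9.87-fold (log2 3.30, SE 0.119, edgeR adjusted p = 5.56e-10). NR4A2 (ENSG00000153234, chr2:156324432-156342348, minus strand), its paralogue best known from dopaminergic neurons, had 28.6 and 26.3 CPM in SP2509 libraries and 13.6 and 13.3 CPM in untreated libraries. It rose by a smaller amount (log2 1.04, SE 0.111, edgeR adjusted p = 3.59e-06), which did not pass the test against a 2-fold change.

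The EGR genes encode growth factor-induced regulators that bind GC-rich sites. EGR1 (ENSG00000120738, chr5:138465490-138469315, plus strand) had 216 and 199 CPM in SP2509 libraries and 60.8 and 44.2 CPM in untreated libraries (log2 1.98, SE 0.135, edgeR adjusted p = 8.42e-08). The untreated replicates of EGR1 lay further apart than those of most of the 9 genes, yet well below the compound's. EGR2 (ENSG00000122877, chr10:62811996-62919900, minus strand) had 10.7 and 9.12 CPM in SP2509 libraries and 1.85 and 1.33 CPM in untreated libraries (log2 2.62, SE 0.199, edgeR adjusted p = 1.95e-07), from counts of 272 and 235 against 67 and 42. EGR3 (ENSG00000179388, chr8:22687659-22693302, minus strand) had 14.9 and 15.4 CPM in SP2509 libraries and 2.10 and 2.75 CPM in untreated libraries (log2 2.65, SE 0.151, edgeR adjusted p = 1.92e-08). Of the low-level members of the family, EGR2 rose by 6.16-fold and EGR3 by 6.27-fold, while EGR1, the most abundant, rose by 3.95-fold. SRF (ENSG00000112658, chr6:43171299-43181507, plus strand), a MADS-box factor known to bind CArG boxes, had 110 and 114 CPM in SP2509 libraries and 37.2 and 38.2 CPM in untreated libraries. Its rise was 2.98-fold (log2 1.57, SE 0.0937, edgeR adjusted p = 2.78e-08), with replicates that lay close together in both groups.

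IER2 (ENSG00000160888, chr19:13150415-13154908, plus strand), a nuclear protein gene of the first transcriptional wave, had 210 and 225 CPM in SP2509 libraries and 101 and 95.7 CPM in untreated libraries (log2 1.15, SE 0.0989, edgeR adjusted p = 5.64e-07). IER5 (ENSG00000162783, chr1:181088712-181092899, plus strand), a regulator of the heat shock factor HSF1, had 176 and 169 CPM in SP2509 libraries and 103 and 118 CPM in untreated libraries. It moved least of the 9 (log2 0.65, SE 0.101, edgeR adjusted p = 9.15e-05). ZFP36 (ENSG00000128016, chr19:39406813-39409412, plus strand) had 59.5 and 75.7 CPM in SP2509 libraries and 19.8 and 16.7 CPM in untreated libraries (log2 1.88, SE 0.151, edgeR adjusted p = 3.01e-07). With the GC-length offset described below all 9 were again higher, beside 35.3% of all genes (72.4% in either direction), and 7, IER2 now among them, passed the test against a 2-fold change, beside 8.59% (19.1% in either direction). Scaling moved the size of all these rises, since all genes had a median of -0.04 with TMM, -0.27 with the upper quartile and -0.43 with total counts alone, and 48.8%, 36.2% and 28.3% of all calls were then upward. IER5 was at 0.26 with total counts (edgeR adjusted p = 0.0367), and IER2 at 0.76.

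**Figure D2:**
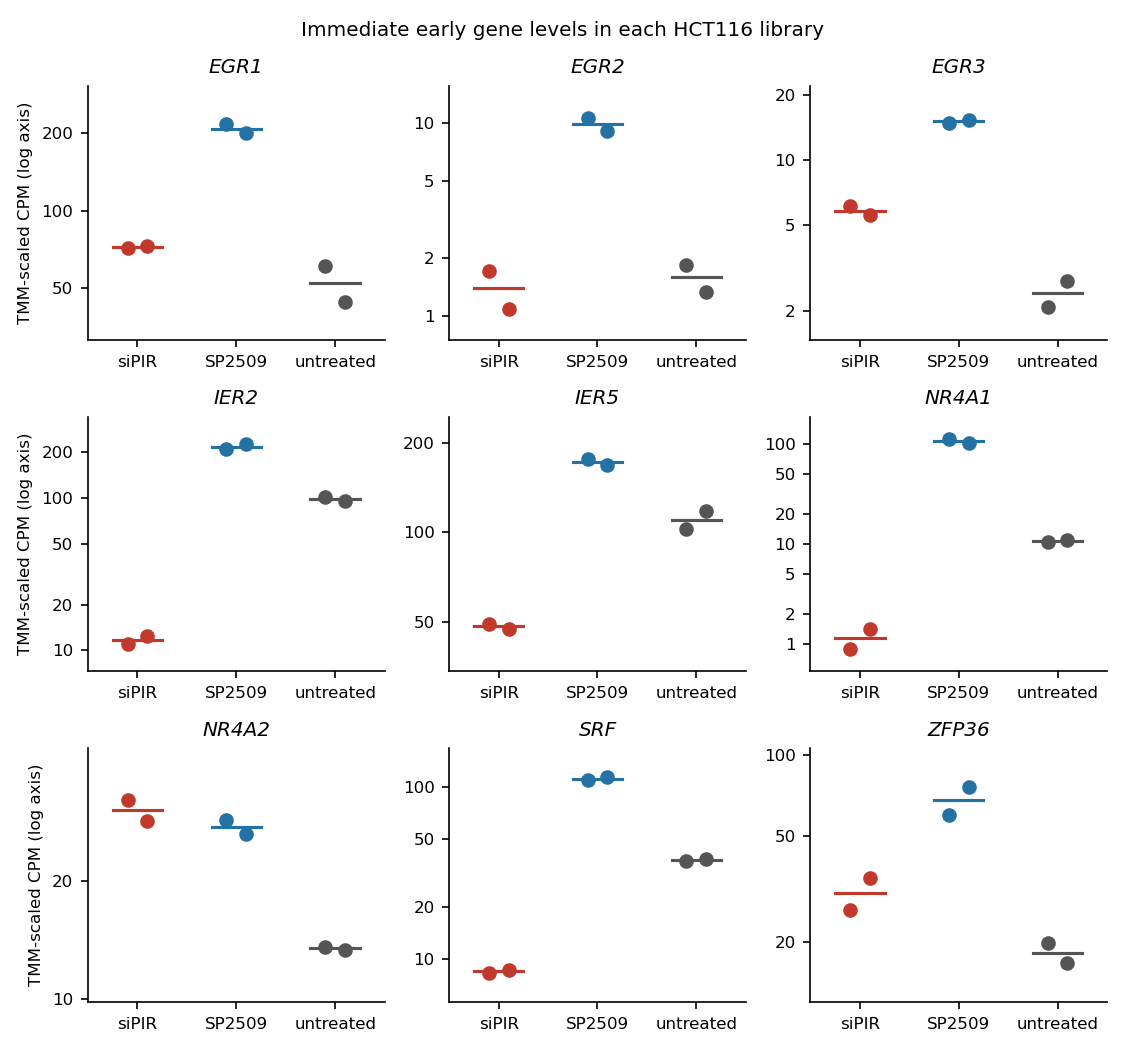
Level of each of the 9 genes in every library as TMM-scaled CPM on a log axis that differs between panels; points are libraries and bars are means of the 2 libraries of siPIR, SP2509 and untreated cells. SP2509 points lie above both untreated points in all 9 panels, whereas siPIR points lie above them in EGR1, EGR3, NR4A2 and ZFP36 and below them in IER2, IER5, NR4A1 and SRF.

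Per kilobase of the longest transcript, which allows levels to be compared between genes, IER2 led in SP2509 cells at 74.3 CPM per kilobase and in untreated cells at 33.5. EGR1 came next in SP2509 cells with 66.2, ahead of IER5 with 41.3, ZFP36 with 37.8, SRF with 26.7, NR4A1 with 22, NR4A2 with 7.92, EGR3 with 3.49 and EGR2 with 3.34. In untreated cells the order was IER5 with 26.3, EGR1 with 16.7, ZFP36 with 10.2, SRF with 8.97, NR4A2 with 3.86, NR4A1 with 2.23, EGR3 with 0.56 and EGR2 with 0.536. Libraries of EGR2 and EGR3 overlapped in both groups, and those of IER5 and ZFP36 overlapped in SP2509 cells, so these neighbours cannot be ordered. EGR1 thus stood above IER5 in SP2509 cells and below it in untreated cells, and NR4A1 above NR4A2 in SP2509 cells and below it in untreated cells. Among all tested genes, the mean CPM of NR4A1 ranked at percentile 88.4 in SP2509 cells and 43.1 in untreated cells, that of EGR1 at 95.2 and 79.2, and that of EGR2 at 43.8 and 21.5.

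Related genes were read from lists written for this purpose with earlier results of these data known. Of 32 other immediate early genes, 27 rose in SP2509 cells and 0 fell (3 fell with total counts alone), with a median log2 fold change of 1.85. The stress factor gene ATF3 (5.79) and the matricellular genes CCN1 (4.16) and CCN2 (4.02) had the largest values. Outside the 9, 6 genes that share a family name with them were listed. The orphan receptor gene NR4A3 (2.49), EGR4 (2.23, at 0.917 CPM in SP2509 cells and 0.192 CPM in untreated cells) and the tristetraprolin relative ZFP36L1 (1.10) rose. IER5L and ZFP36L2 fell by 0.87 and 0.40 on the log2 scale, and IER3 was at 0.04 (edgeR adjusted p = 0.76). EGR4, NR4A3 and IER3 also stand in the list of other immediate early genes, so they are counted in both. Genes that share a family name therefore did not all move in the same direction.

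Of the cofactors that SRF works with, 4 of 5 rose and 1, MRTFB at -0.45, fell. ELK3, a ternary complex factor, rose by 2.17 on the log2 scale, ELK1 by 0.97 and the actin-regulated coactivator gene MRTFA by 0.62, and 2 of the 5 were higher with total counts alone. Of 12 tested cytoskeletal genes known as SRF targets, 11 rose and 0 fell (median 0.89; 9 rose with total counts alone), led by the LIM protein gene FHL2 (3.83) and the actin genes ACTA2 (2.93) and ACTG1 (1.85). Actin genes have many near-identical copies, so their counts are uncertain. Of 11 corepressors and targets of EGR factors, 7 rose and 2 fell (median 0.83): PDGFB, a growth factor gene, rose by 1.95 and the cell cycle inhibitor gene CDKN1A by 1.58, while the helix-loop-helix gene ID3 changed by -2.20. Of 11 tested mRNAs known as ZFP36 targets, 8 rose and 0 fell (2 fell with total counts alone; median 1.5), among them CXCL8 (3.41), PTGS2 (2.88) and PLAU (1.92). Of 12 ERK pathway genes, 7 rose and 2 fell (4 with total counts alone; median 0.38), with the receptor gene EGFR at 2.03 and the kinase gene BRAF at 1.77. Of the NR4A dimer partners, RXRB rose by 0.43 (not called with total counts alone) and RXRA was at -0.17 (edgeR adjusted p = 0.125), and 1 of the partners was called lower with total counts alone, with upper-quartile scaling, with only the 4 libraries compared and without either siPIR replicate. Against these counts, 33.5% of all tested genes were called higher and 35.1% lower.

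**Figure D3:**
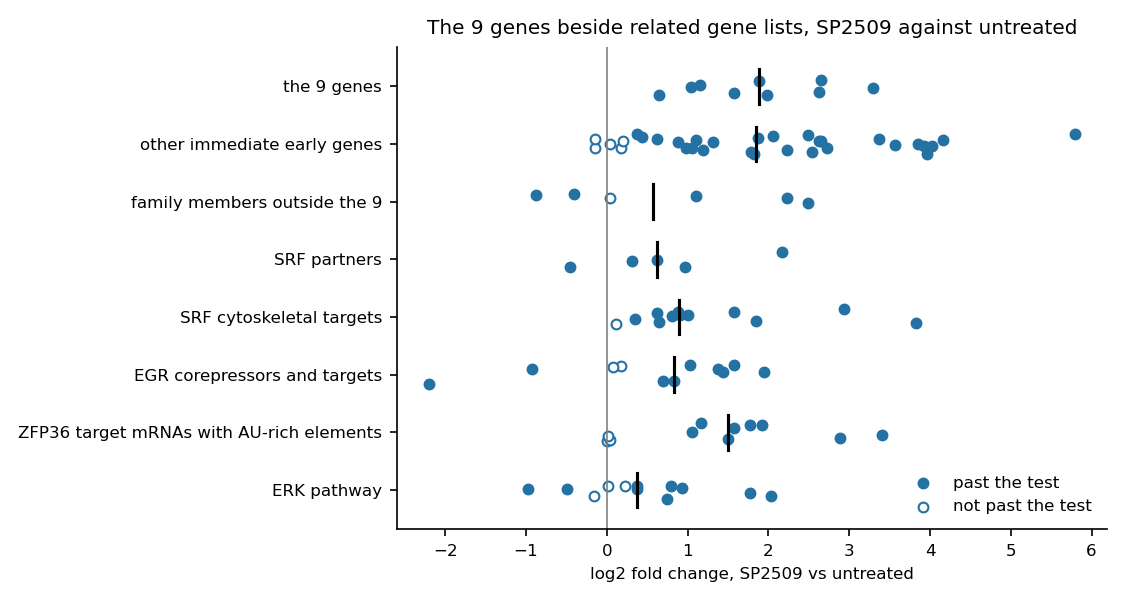
Log2 fold changes of SP2509 over untreated cells for the 9 genes and for genes of 7 related lists, with 1 point per tested gene and a black bar at each median; filled points passed the edgeR test and open points did not. The 9 genes have a median of 1.88 and lie at 0.65 or above, beside a median of 1.85 for the 32 other immediate early genes.

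The comparison of siPIR with untreated cells divided the 9 genes: EGR1, EGR3, NR4A2 and ZFP36 were called higher, IER2, IER5, NR4A1 and SRF were called lower, and EGR2 was not called. This share is close to the background, since 86.1% of all tested genes were called, 39.3% higher and 46.9% lower. No overlap between libraries was seen for 8 of the 9, and for 93.1% of all genes. Against a 2-fold change 6 of the 9 passed (2 higher, 4 lower), where 60.2% of all genes did (24.4% higher, 35.7% lower). The count ran between 4 and 6 over the alternatives. It was 4 with upper-quartile scaling, total counts alone, no filter on low counts and the GC-length offset described below, and it also fell in some fits with a library left out. The fold changes of this comparison followed transcript GC content across 16345 genes (Spearman rho -0.883, a description across genes that share the same libraries, against -0.089 for SP2509 and untreated cells). Each of the 9 values below is therefore set beside the median or 90th percentile of all tested genes of similar GC content and beside a fit with a GC-length offset, in which the trend of each library on GC content and transcript length was removed. The median of all genes was -0.66 with that offset and -0.28 as fitted.

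NR4A1 had 0.888 and 1.41 CPM in siPIR libraries and 10.5 and 11 CPM in untreated libraries, from 17 and 27 counts against 381 and 348. It was 9.35-fold lower (log2 -3.22, SE 0.196, edgeR adjusted p = 3.25e-09), beside a median of -2.62 over all genes of 55 to 60% GC. At 59.8% GC, NR4A1 stands at the upper edge of that class, and the next class had a median of -4.14. With the offset it was at -0.79 (edgeR adjusted p = 0.00317), near the median of all genes of -0.66. IER2 had 11 and 12.4 CPM in siPIR libraries and 101 and 95.7 CPM in untreated libraries (log2 -3.07, SE 0.116, edgeR adjusted p = 5.79e-11). Its GC class, 60 to 65%, had a median of -4.14, and with the offset its value was -0.11 and no longer passed (edgeR adjusted p = 0.277). SRF had 8.25 and 8.64 CPM in siPIR libraries and 37.2 and 38.2 CPM in untreated libraries (log2 -2.16, SE 0.111, edgeR adjusted p = 6.71e-10). In the same GC class it lay above the 90th percentile of -2.29. At 60.9% GC, SRF stands near the lower edge of that class. The class below had a median of -2.62 and a 90th percentile of -0.96. With the offset SRF turned to 0.58 (edgeR adjusted p = 5.64e-05). These 3 genes have the highest GC contents of the 9.

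IER5, at a middling GC content, had 49.4 and 47.4 CPM in siPIR libraries and 103 and 118 CPM in untreated libraries. It fell by 1.19 on the log2 scale (SE 0.105, edgeR adjusted p = 1.51e-07), where genes of 45 to 50% GC had a median of 0.05 and a 10th percentile of -1.41. At 49.8% GC, IER5 stands at the upper edge of that class, and the next class, 50 to 55%, had a median of -1.19. With the offset IER5 was at -1.33 (edgeR adjusted p = 2.20e-11). It was thus called lower in both fits, as was NR4A1, but passed the test against a 2-fold change in both, which NR4A1 did only as fitted. With the offset 60.1% of all genes were called lower, and IER5 ranked at percentile 26 of all genes and NR4A1 at 44.7.

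ZFP36 had 26.4 and 34.6 CPM in siPIR libraries and 19.8 and 16.7 CPM in untreated libraries (log2 0.74, SE 0.155, edgeR adjusted p = 0.000596). EGR1 had 71.9 and 73.2 CPM in siPIR libraries and 60.8 and 44.2 CPM in untreated libraries (log2 0.47, SE 0.134, edgeR adjusted p = 0.00555). Both rises were small, and both genes lay above the 90th percentile of their GC class, which was -0.96. With the offset ZFP36 was at 2.56 (edgeR adjusted p = 1.71e-13) and EGR1 at 1.75 (edgeR adjusted p = 1.95e-09). By total counts alone neither passed, with ZFP36 at 0.12 (edgeR adjusted p = 0.459) and EGR1 at -0.15 (edgeR adjusted p = 0.289), and EGR1 also missed the threshold without untreated replicate 2 (0.23, edgeR adjusted p = 0.164). Total counts moved the median of all genes to -0.89.

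EGR3 had 6.11 and 5.57 CPM in siPIR libraries and 2.10 and 2.75 CPM in untreated libraries, a rise of 1.27 on the log2 scale (SE 0.174, edgeR adjusted p = 1.26e-05). It lay above the 90th percentile of genes of 50 to 55% GC, which was 0.33, and was at 1.6 with the offset (edgeR adjusted p = 5.46e-08). NR4A2 had 32.2 and 28.4 CPM in siPIR libraries and 13.6 and 13.3 CPM in untreated libraries (log2 1.18, SE 0.112, edgeR adjusted p = 3.33e-07), just under the 90th percentile of its GC class of 1.27. With the offset it was at 0.68 (edgeR adjusted p = 3.07e-06). EGR2 had 1.72 and 1.09 CPM in siPIR libraries and 1.85 and 1.33 CPM in untreated libraries, and the libraries of the groups overlapped. Its value of -0.19 on the log2 scale (SE 0.287, edgeR adjusted p = 0.548) had an approximate 95% interval of -0.75 to 0.38, so a change of up to about that size was not detectable here. Genes of its GC class, 50 to 55%, had a median of -1.19. At 50.9% GC, EGR2 stands near the lower edge of that class, and the 45 to 50% class had a median of 0.05. With the offset EGR2 was at -0.07 (edgeR adjusted p = 0.841). Its sign turned without untreated replicate 1 (0.07) and without siPIR replicate 2 (0.13).

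**Figure D4:**
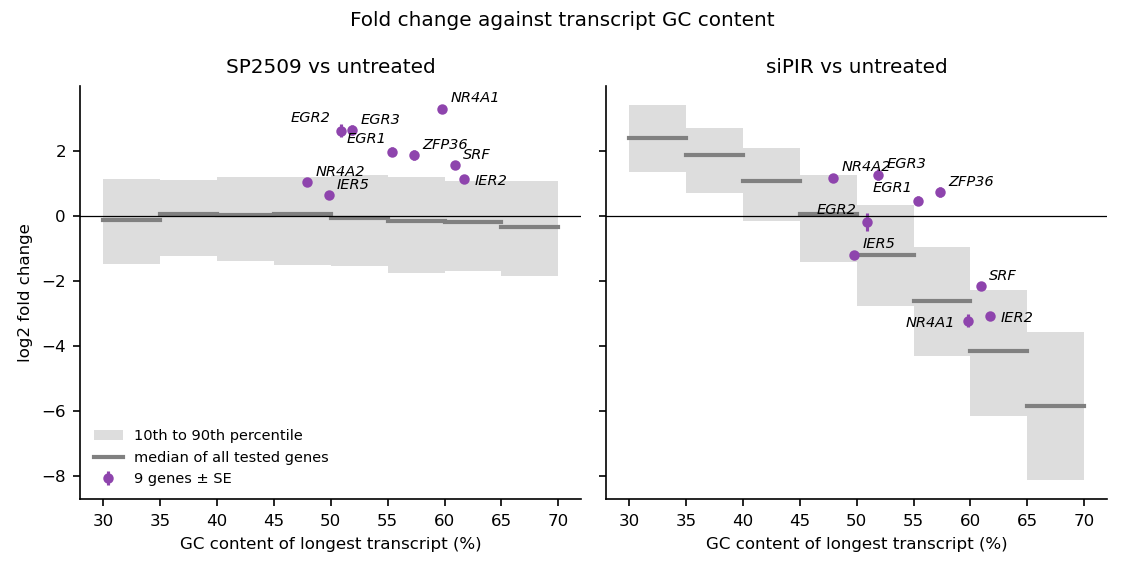
Log2 fold change against GC content of the longest transcript for the 9 genes (points, with SE) in SP2509 and in siPIR cells, each over untreated cells; grey bars give the median and grey bands the 10th to 90th percentile of all tested genes per GC class, with the end classes drawn to 30 and 70%. In siPIR cells the class medians run between 2.40 and -5.83, and EGR1, EGR3, ZFP36 and SRF lie above the band of their class.

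With the offset, 5 of the 9 were higher and 2 lower in siPIR cells, where 13% of all genes were called higher and 60.1% lower (73.2% in either direction). Of the 9, 3 (EGR1, EGR3 and ZFP36) passed upward against a 2-fold change, as 3% of all genes did, and 1 (IER5) downward, as 22.5% did (25.5% in either direction). The median of the 9 was then 0.58. Fitted to these same libraries, the offset also removes any biological change that follows GC content or length, so neither fit is taken here as the true change.

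Among the related lists, 17 of 32 other immediate early genes were higher in siPIR cells and 11 lower (median 0.55; 21 and 4 with the offset), where 39.3% of all tested genes were higher and 46.9% lower (13% and 60.1% with the offset). As fitted, the AP-1 gene JUNB (-6.72) and the neuronal gene ARC (-5.37) had the largest values, at GC contents of 64.9% and 66.8%, and with the offset they were at -3.04 and -1.32. Of the genes that share a family name with the 9, ZFP36L1 rose by 2.53 (2.36 with the offset) and IER5L fell by 3.93 (-0.22 with the offset, edgeR adjusted p = 0.101). ELK3 rose by 2.88 (1.32 with the offset) and MRTFA fell by 3.51 (-0.69 with the offset) among SRF partners, of which 3 were higher and 2 lower. Of the 12 cytoskeletal genes, 9 were lower and 2 higher (median -1.44; 8 lower and 2 higher with the offset, median -1.23), with MYL9 at -4.43 (-1.77 with the offset) and FLNA at -4.16 (-1.22 with the offset). Of EGR corepressors and targets 7 of 11 were lower and 3 higher (5 and 5 with the offset), with ID3 at -5.10 (-3.30 with the offset) and TGFB1 at -4.85 (-1.47 with the offset), and of ZFP36 target mRNAs 3 of 11 were lower and 5 higher (3 and 6 with the offset), with CXCL8 at 3.62 (0.85 with the offset) and BIRC3 at 3.24 (0.51 with the offset). In the ERK pathway 7 of 12 were higher and 5 lower, which became 2 and 8 with the offset, and as fitted HRAS (-4.61, or -0.75 with the offset) and MAP2K2 (-4.09, or -1.33 with the offset) had the largest values. RXRA and RXRB fell by 2.45 and 1.71 and were at 0.17 and 0.43 with the offset.

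The direct comparison of siPIR with SP2509 cells set the interventions against each other. Of the 9 genes, 8 were lower in siPIR cells and 0 higher, where 45.5% of all tested genes were called lower and 38.8% higher (84.3% in either direction). Libraries did not overlap for 8 of the 9 and for 91.8% of all genes. Against a 2-fold change 7 of the 9 passed, all downward, beside 34.2% of all genes downward and 24.1% upward (58.3% in either direction). With the GC-length offset 8 were lower and 1 higher, beside 54.8% and 17.3% of all genes (72.1% in either direction), and 4 passed the test against a 2-fold change, all downward, beside 26% of all genes downward and 4.84% upward (30.8% in either direction). The median of all genes was -0.62 with the offset and -0.23 as fitted. EGR1 (-0.31) and NR4A2 (-0.33), both called lower with the offset, lay above the median of that fit. NR4A1 differed most, at 0.888 and 1.41 CPM in siPIR libraries and 112 and 101 CPM in SP2509 libraries, a 92.3-fold lower level (log2 -6.53, SE 0.170, edgeR adjusted p = 7.36e-12). With the offset its value was -4.21 (edgeR adjusted p = 4.58e-13 against a 2-fold change). IER2 was at -4.22 (SE 0.119, edgeR adjusted p = 7.85e-12; -1.45 with the offset) and SRF at -3.73 (SE 0.111, edgeR adjusted p = 1.06e-11; -1.13 with the offset). Fold changes followed GC content here too (Spearman rho -0.837 across 16345 genes). Medians over all genes were 0 at 45 to 50% GC, -1.13 at 50 to 55%, -2.42 at 55 to 60% and -4.01 at 60 to 65%. IER2 and SRF are in the last of these classes and NR4A1 is at the upper edge of the class before it.

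As fitted, the EGR genes differed less than NR4A1, IER2 and SRF, whereas with the offset EGR2 differed more than IER2 and SRF. EGR2 was at -2.81 (SE 0.229, edgeR adjusted p = 6.89e-08; -2.71 with the offset), EGR1 at -1.52 (SE 0.134, edgeR adjusted p = 1.65e-07; -0.31 with the offset) and EGR3 at -1.37 (SE 0.144, edgeR adjusted p = 9.73e-07; -1.05 with the offset). IER5 was lower by 1.84 on the log2 scale in the direction of its other siPIR comparison (SE 0.106, edgeR adjusted p = 2.10e-09; -1.96 with the offset). ZFP36 was lower by 1.15 (SE 0.149, edgeR adjusted p = 8.35e-06), yet turned to 0.60 with the offset (edgeR adjusted p = 4.56e-05). NR4A2 was the single member without a call: 32.2 and 28.4 CPM in siPIR libraries overlapped 28.6 and 26.3 CPM in SP2509 libraries, and the log2 difference of 0.14 (SE 0.108, edgeR adjusted p = 0.238) had an approximate 95% interval of -0.07 to 0.35. It was called higher with the size factors of DESeq2 (RLE) in edgeR (0.26, edgeR adjusted p = 0.0425) and was at 0.24 without siPIR replicate 2. With the offset it was called lower (-0.33, edgeR adjusted p = 0.0038), although the median of all genes was lower still, at -0.62.

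**Figure D5:**
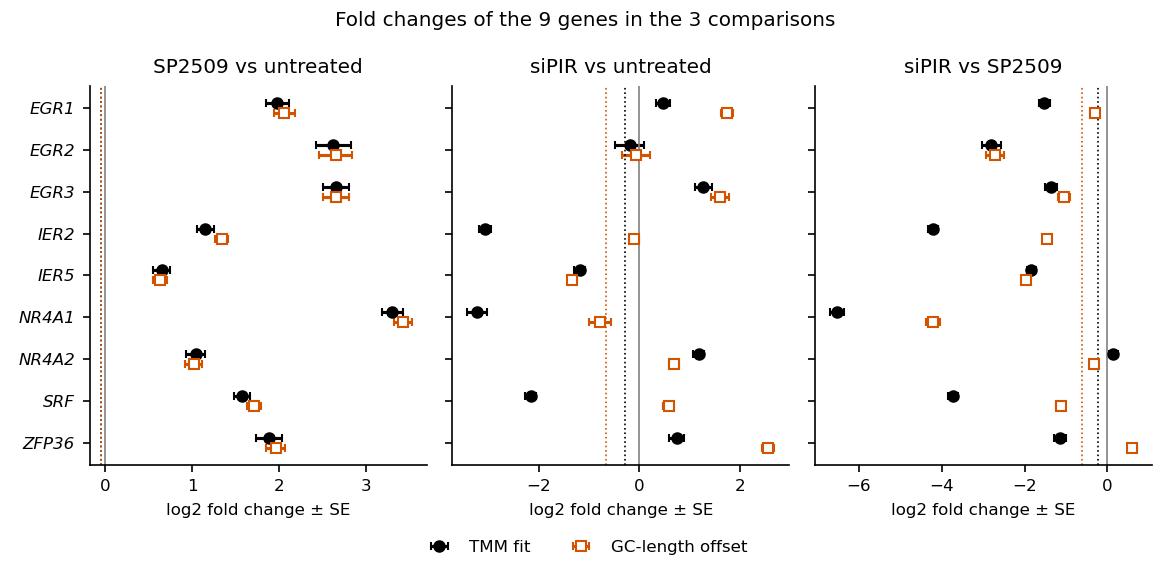
Log2 fold changes (± SE) of the 9 genes in the 3 comparisons, as fitted with TMM (black circles) and with the GC-length offset (open orange squares); dotted lines mark the median of all tested genes in each fit. The fits nearly coincide for SP2509 against untreated cells and differ most for IER2, SRF and NR4A1 in both siPIR comparisons.

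Per kilobase, the order in siPIR cells was EGR1 with 23.1 CPM per kilobase, ZFP36 with 17.1, IER5 with 11.6, NR4A2 with 8.73, IER2 with 3.98, SRF with 2.01, EGR3 with 1.35, EGR2 with 0.475 and NR4A1 with 0.237, and no neighbours overlapped. These levels carry the GC trend of the siPIR libraries.

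Over the 6 libraries, the members fell into patterns that were compared by the Euclidean distance of log2 CPM centred on each gene's mean. EGR1 and ZFP36 were the closest pair (0.579), followed by IER2 and SRF (0.929), EGR3 and ZFP36 (0.976) and EGR1 and EGR3 (1.02), while the paralogues NR4A1 and NR4A2 were the farthest pair (6.75). The distances carry that trend too: IER2 and SRF are alike in GC content (61.7% and 60.9%), and NR4A1 and NR4A2 are not (59.8% and 47.9%). Among 9778 other protein-coding genes whose log2 CPM averaged 3 or more, the nearest to each member was LETM2 for EGR1 (0.238), AMOTL2 for EGR2 (0.478), SLC22A15 for EGR3 (0.277), FAM131A for IER2 (0.166), ZNF622 for IER5 (0.157), OSGIN1 for NR4A1 (0.525), ORC3 for NR4A2 (0.117), VPS37B for SRF (0.19) and BHLHE40 for ZFP36 (0.252). With only 3 groups in the data, many genes can come close to any pattern by this measure. OSGIN1, the nearest to NR4A1, changed by 3.10 in SP2509 cells and by -3.20 in siPIR cells, each against untreated cells, and BHLHE40, the nearest to ZFP36, by 1.98 and 0.87.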

How the data were processed

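The authors deposited 1 table of estimated counts per Ensembl gene, with fractions in 9.32% to 12% of the values per library. Per the submitters' processing notes the tools were Trimmomatic 0.32, FastQC 0.11.8, HISAT2, Subread 1.6.2 (featureCounts) and edgeR 3.26.4, with GRCh38. Strand setting, annotation release and the rule behind the fractions: not given in the sources used here. The estimated counts were rounded to whole numbers, filtered with filterByExpr, scaled by TMM and fitted over all 6 libraries with edgeR 4.0.16 (R 4.3.3) by the robust quasi-likelihood test, as 3 groups with 3 residual degrees of freedom. Benjamini-Hochberg adjustment ran across the 16503 tested genes (threshold 0.05), and glmTreat gave the test against a 2-fold change. SEs were derived from the F statistics. Positions, GC content, exons and 3′ UTRs are from GENCODE 29 (GRCh38). GC content, length and exons use the longest transcript of a gene. The 3′ UTR is that of the longest transcript with a complete stop codon and a 3′ UTR, which can be another transcript. No GC value was available for 158 tested genes. The GC-length offset used natural splines of 5 degrees of freedom. Alternatives included other scalings, DESeq2 1.42.0, limma-voom (limma 3.58.1), other filters, blocks and the removal of each library. The procedure was tested on simulated data: with a GC trend imposed on siPIR libraries, unchanged genes were often called in siPIR against untreated cells, less often with the offset, so p-values of siPIR comparisons do not separate a change from the trend. The members, the lists and the rule for named genes (all 9 members, PIR, the nearest gene to each member, and the up to 3 and 2 largest called changes per list in SP2509 and siPIR cells against untreated cells) were chosen with earlier results of these data known. A gene that this rule selects is not reported here. Counts of duplicate libraries differed by more than sampling noise in every group (chi-square per degree of freedom 4.14 to 19.1).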

Additional observations from a re-analysis of the deposited data

How the results depend on the processing

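All 9 genes stayed higher in SP2509 than in untreated cells, past the threshold, in each of the 19 alternatives. With either form of the GC-length offset the members past a 2-fold change in siPIR against SP2509 cells numbered 4, against 7 as fitted. In siPIR against untreated cells, SRF turned to 0.58 with the offset, with or without the replicate block, EGR1 to -0.15 with total counts alone, and EGR2 to 0.07 without untreated replicate 1 and 0.13 without siPIR replicate 2. In siPIR against SP2509 cells, NR4A2 turned to -0.09 with total counts alone and to -0.33 with the offset, with or without the block, and ZFP36 to 0.60 likewise. For these changes the cause was not tested. EGR2 was called lower in siPIR than in untreated cells with total counts alone (-0.80, edgeR adjusted p = 0.0137) and was at -0.53 without siPIR replicate 1.

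Leaving out each library in turn gave 9 members called in SP2509 against untreated cells throughout, 7 to 8 in siPIR against untreated cells and 8 to 9 in siPIR against SP2509 cells. Against a 2-fold change the ranges were 6 to 7, 4 to 6 and 7 to 8. All genes called ranged over 9340 to 12578, 13550 to 14427 and 13298 to 13959.

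Same-numbered replicates of SP2509 and untreated cells also share an unexplained number in the sample descriptions, and whether they are paired is not known. Deviations of same-numbered replicates from their group means correlated at -0.024 (SP2509 and untreated), -0.038 (siPIR and untreated) and 0.081 (siPIR and SP2509). With 2 libraries per group, these values cannot show whether libraries are paired. With the replicate block, members called were 9, 8 and 8 and 67.7%, 85.7% and 83.7% of all genes were called, and no member's call changed. In that unexplained number, siPIR replicate 2 matches replicate 1 of the other groups. With that number as a block, siPIR replicate 1 stood alone in its block, so the siPIR comparisons rested on siPIR replicate 2. All 9 members were again called in SP2509 against untreated cells, and EGR2 in siPIR against untreated cells was at -0.68. At 17 to 67 counts, NR4A1 in siPIR cells and EGR2 in siPIR and untreated cells were the least precisely measured.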
